A study of Mus musculus with 8 samples.

Results

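Transcripts of 10 integrin subunits were followed through rTreg and aTreg cells with and without Foxp1. The subunits were chosen by name: the α chains Itgae, Itga4, Itga6, Itgal and Itgav and the β chains Itgb1, Itgb2, Itgb3, Itgb7 and Itgb8. They are 10 of the 27594 genes in the count table and 10 of the 26 integrin subunit genes listed in it. The libraries came from C57BL/6 mice of 6 to 8 weeks, from Treg cells of spleen and peripheral lymph nodes. The WT mice were Foxp3-YFP-Cre and the Foxp1-deficient mice were Foxp1fl/fl Foxp3-YFP-Cre, so both genotypes carried the Cre knock-in at the Foxp3 locus, which drives Cre in cells that express Foxp3. Resting Treg (rTreg) cells were sorted from CD4+ YFP+ cells with a gate that included CD44low, and activated Treg (aTreg) cells with one that included CD44high. Each of the 4 groups had 2 libraries, with replicate numbers 1 and 2. The labels do not say how many mice stood behind a library, but the 2 libraries of each group differed in the sex of the mice by their sex-linked transcripts, so they came from different mice and the spread between them includes sex.

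Integrins are cell-surface receptors made of one α and one β chain, and a chain reaches the surface only when it finds a partner. On T cells they hold the cell to vessel walls, to antigen-presenting cells and to the matrix, and the pairs a cell carries set where it can settle. The αEβ7 pair (CD103) binds E-cadherin on epithelium, α4β7 binds the gut addressin MAdCAM-1, α4β1 binds VCAM-1 and fibronectin, α6β1 binds laminin, and αLβ2 (LFA-1) binds the ICAMs. The αVβ8 pair releases active TGF-β from its latent complex and is known as a way in which Treg cells supply TGF-β, while αVβ3 binds vitronectin and other RGD ligands.

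The libraries held between 6373170 and 15268623 counts on genes, and a level of 3 counts, used here as the floor, equals 0.196 to 0.471 CPM (counts scaled to a common library total), counting error alone considered. All 10 subunits were above that floor in every library and all 10 entered the tests, with the lowest count, 30, in Itgae of a Foxp1-deficient rTreg library. The targeted gene, counted over its whole length, was lower in Foxp1-deficient aTreg cells (114 ± 17.3 against 232 ± 2.96 CPM, SD, n = 2, edgeR log2 fold change −1.03, adjusted p = 0.00194). In rTreg cells its values, 340 ± 2.97 and 369 ± 21.4 CPM (SD, n = 2), did not pass the test (edgeR, adjusted p = 0.46), so the whole-gene count checks the genotype labels of the aTreg libraries and leaves those of the rTreg libraries unchecked. Cd44 followed the gates and was higher in aTreg cells of both genotypes, and it was lower in Foxp1-deficient rTreg (29.6 and 30.3 CPM) than WT rTreg cells (35.1 and 45.3 CPM). Replicate numbers went with the sex of the mice: Xist had at most 3 counts in the libraries numbered 1 and 15098 to 21822 in those numbered 2, and 4 Y-linked genes summed to at least 2143 counts in the former and to 0 in the latter, so sex and replicate number cannot be told apart. The summed level of the 6 B cell markers was 8.29 to 11 CPM in rTreg and 33.6 to 39.1 CPM in aTreg libraries, where Cd22 reached 13.1 to 19.9 CPM. The 8 myeloid markers summed to 7.86 to 9.55 CPM in WT libraries and to 6.54 to 31.9 CPM in Foxp1-deficient libraries, and of rTreg libraries those of WT held 0 counts of Mpo and those without Foxp1 held 25 and 36. Mpo, S100a8 and S100a9 were called higher in Foxp1-deficient than WT rTreg cells (edgeR adjusted p = 0.00948, 0.0454 and 0.0373), while Lyz2 and Cd68 did not pass (edgeR adjusted p = 0.137 and 0.471). Between aTreg genotypes Mpo alone of these was called higher (edgeR adjusted p = 0.0394). The 4 dendritic cell markers in the table summed to at most 1.75 CPM in rTreg and to between 4.36 and 9.49 CPM in aTreg libraries, with Flt3 and Siglech at 3 counts or fewer throughout. The other 2 were called higher in aTreg cells of both genotypes, Zbtb46 by 4.41-fold in WT and 7.48-fold in Foxp1-deficient cells (edgeR adjusted p = 0.00875 and 0.00162) and Xcr1 from 0 to 1 count in rTreg to 9 to 34 counts in aTreg libraries. NK and CD8 markers summed to 8.27 to 16.7 CPM and erythroid markers to at most 3.51 CPM. Of the 2 NK and CD8 markers tested, Klrb1c had 0 to 5 counts in rTreg and 25 to 41 in aTreg libraries. It was called higher in aTreg cells of both genotypes (edgeR adjusted p = 0.000514 in WT and 0.0035 in Foxp1-deficient cells). Cd8b1 went the other way, at log2 −0.64 in WT and −0.95 in Foxp1-deficient cells, under the fold threshold (edgeR adjusted p = 0.012 and 0.00168). The part of these cells in the results below was not tested.

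The sequence before the start site is shown for Itga4 and Itgb8, which had the largest genotype differences of the 10 subunits, and for Itgb1, which had one of the largest subset differences. RefSeq windows of 250 bases before the start (GRCm38.p6) were held for 5 of the 10 subunits. They are printed 5′ to 3′ on the strand of the gene for these 3, with capitals for the GC box letters GGGCGG and the RUNX core letters TGTGGT, or the reverse complements CCGCCC and ACCACA. Itga4 is chr2:79255176-79255425, plus strand, Itgb1 is chr8:128685404-128685653, plus strand, and Itgb8 is chr12:119238277-119238526, minus strand. The RefSeq start of Itgb8 lies 526 bases downstream of the gene start in GENCODE, so the window printed for Itgb8 falls inside the GENCODE gene.
Itga4: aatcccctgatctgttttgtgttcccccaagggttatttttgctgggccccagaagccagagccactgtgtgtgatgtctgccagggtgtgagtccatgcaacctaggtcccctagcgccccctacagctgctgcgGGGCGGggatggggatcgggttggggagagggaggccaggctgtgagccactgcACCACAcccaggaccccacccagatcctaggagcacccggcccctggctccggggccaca
Itgb1: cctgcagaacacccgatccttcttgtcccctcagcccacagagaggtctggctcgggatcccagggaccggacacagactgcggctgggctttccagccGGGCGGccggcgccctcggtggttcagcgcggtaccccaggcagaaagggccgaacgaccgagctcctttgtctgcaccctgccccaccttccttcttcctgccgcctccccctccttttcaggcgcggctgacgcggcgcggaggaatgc
Itgb8: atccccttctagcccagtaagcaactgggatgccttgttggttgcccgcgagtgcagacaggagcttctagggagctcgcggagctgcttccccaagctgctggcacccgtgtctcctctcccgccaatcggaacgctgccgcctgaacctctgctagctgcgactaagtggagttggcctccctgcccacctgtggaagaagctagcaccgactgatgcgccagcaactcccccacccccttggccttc
GGGCGG was in the Itga4 and Itgb1 windows among the 5, and in 32.7% of 32851 promoter windows of that length, either strand counted. TGTGGT was in the Itga4 window alone of the 5 and in 14% of all windows. The forkhead letters TGTTTAC and TGTTTGC were in 0 of the 5 windows, and in 3.17% and 4.3% of all windows. The Itgb8 window held none of these letters. The matches describe letters only.

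Levels of different genes are set side by side as FPKM, which divides by gene length and by the total of the library, and 1 gene is followed across groups as CPM scaled by TMM. Itgb7, the β chain shared by αEβ7 and α4β7, was the most abundant subunit in all 4 groups, at 394 ± 25.8 FPKM in WT rTreg, 436 ± 1.8 in Foxp1-deficient rTreg, 327 ± 0.196 in WT aTreg and 431 ± 55.1 in Foxp1-deficient aTreg cells (SD, n = 2). Itgb2, the common β chain of leukocyte integrins, came next with means of 226 to 260 FPKM. In Foxp1-deficient aTreg cells, however, Itgb2 overlapped with Itgb1, which stood at 255 ± 45.2 FPKM. Itgb8 was lowest by FPKM in every group, from 0.544 ± 0.0936 FPKM in Foxp1-deficient rTreg to 9.88 ± 0.347 FPKM in Foxp1-deficient aTreg cells. By CPM, which does not divide by length, Itgae was below Itgb8 in WT rTreg cells (8.41 against 13).

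The order in between depended on the subset. In WT rTreg cells Itgal (126 FPKM) was followed by Itga6 (46.5) and Itga4 (43.7), whose libraries overlapped, then by Itgb3 (26.1), Itgb1 (18.4), Itgav (5.13) and Itgae (1.82). In WT aTreg cells Itgal (229 FPKM) was followed by Itgb1 (137), Itgae (72.1), Itga4 (55.9) and Itga6 (22.7), and the libraries of Itgb3 (14.8), Itgav (10.3) and Itgb8 (8.55) overlapped from each to the next. Itgae therefore moved from the place above the lowest to the middle of the list, and Itgb1 from below Itgb3 to above every α chain but Itgal. The levels of the 10 subunits in each library are drawn by group.

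**Figure D1:**
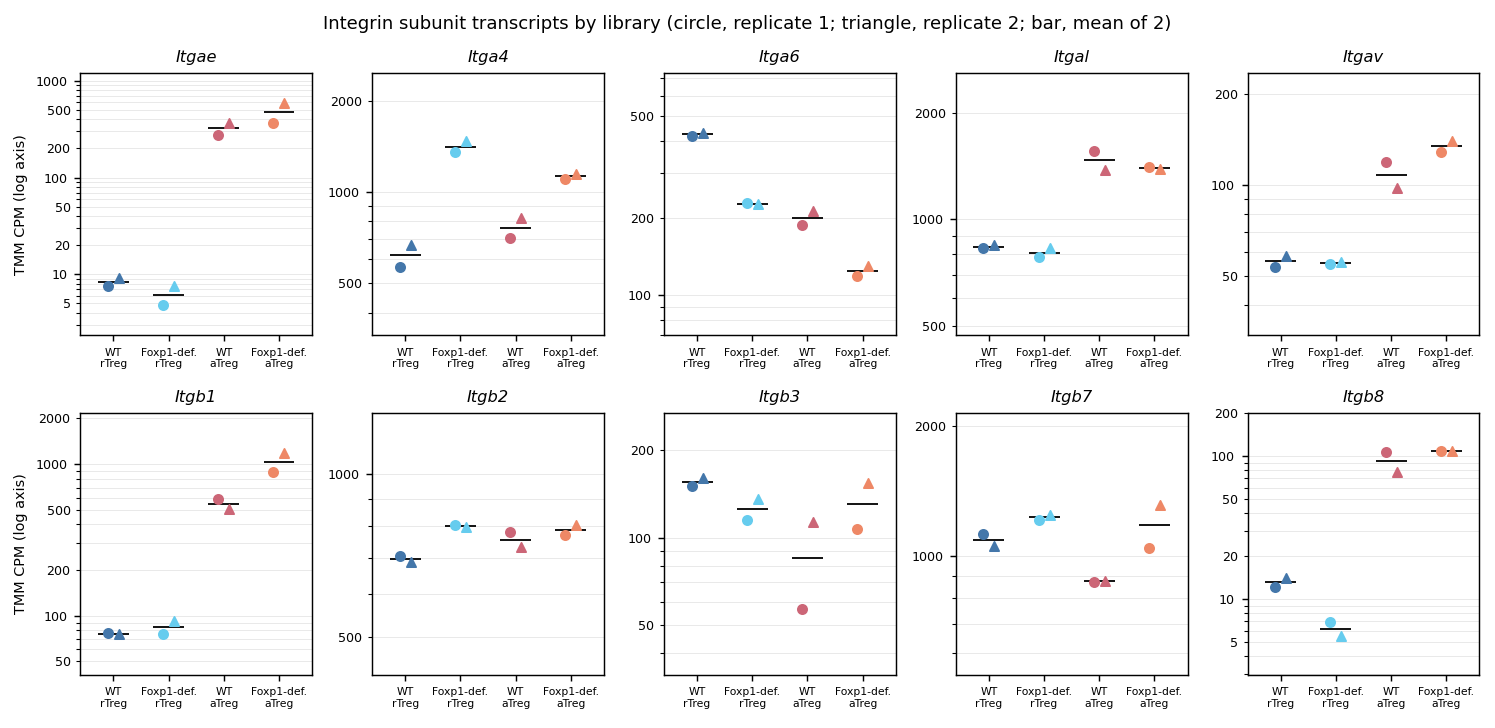
TMM-scaled CPM (log axis, own range in each panel) of the 10 integrin subunits in the 8 libraries, by group, with circles for replicate 1, triangles for replicate 2 and a bar at the mean of 2. Itgae, Itgb1 and Itgb8 stand several-fold higher in both aTreg groups, from means of 6.18 to 84.4 CPM in rTreg to means of 92.2 to 1036 CPM in aTreg cells, while Itga6 is highest in WT rTreg cells (423 CPM).

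The first question was how integrin transcripts differed between resting and activated Treg cells. In WT mice 3 of the 10 subunits were higher in aTreg cells by the call used throughout, an edgeR adjusted p under 0.05 with at least 2-fold change, against 9.50% of all 14540 genes tested. Itga6 was the only subunit of the 10 called lower in WT aTreg cells, against 2.83% of all genes. At the adjusted p alone, 9 of the 10 passed, 6 higher and 3 lower, where 31.9% of all genes did. The median log2 change of the 10 was 0.56, and that of all genes −0.00.

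Itgae (chr11:73090583-73147446, plus strand, GRCm38), the α chain of CD103, had the largest change of the 10 subunits. It was at 7.55 and 9.27 CPM in WT rTreg, 4.78 and 7.58 in Foxp1-deficient rTreg, 275 and 370 in WT aTreg and 366 and 589 in Foxp1-deficient aTreg cells. Every aTreg library lay far above every rTreg library, while the genotypes overlapped within each subset. The aTreg level was 38.4-fold higher in WT cells (log2 5.26, SE 0.11, edgeR adjusted p = 1.14e-06) and 75.6-fold higher in Foxp1-deficient cells (log2 6.24, SE 0.12, edgeR adjusted p = 2.66e-07).

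Itgb1 (chr8:128685654-128733200, plus strand), the β chain of the receptors for VCAM-1, fibronectin and laminin, was at 76.6 and 75.3 CPM in WT rTreg, 75.9 and 92.9 in Foxp1-deficient rTreg, 589 and 502 in WT aTreg and 883 and 1189 in Foxp1-deficient aTreg libraries. The rTreg groups overlapped, and the Foxp1-deficient aTreg libraries were both above the WT ones. The aTreg level was 7.2-fold higher in WT cells (log2 2.85, SE 0.15, edgeR adjusted p = 1.64e-05) and 12.2-fold higher in Foxp1-deficient cells (log2 3.61, SE 0.16, edgeR adjusted p = 4.68e-06).

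Itgb8 (chr12:119158022-119238802, minus strand), which with αV makes the TGF-β-activating receptor, was at 12.1 and 14 CPM in WT rTreg, 6.85 and 5.49 in Foxp1-deficient rTreg, 107 and 77.6 in WT aTreg and 109 and 108 in Foxp1-deficient aTreg cells. None of the 4 groups overlapped with the next, and the lowest group was Foxp1-deficient rTreg, with 43 and 76 counts. The aTreg level was 6.95-fold higher in WT cells (log2 2.80, SE 0.15, edgeR adjusted p = 1.68e-05) and 17.9-fold higher in Foxp1-deficient cells (log2 4.16, SE 0.17, edgeR adjusted p = 4.44e-06). Its partner chain Itgav (chr2:83724397-83806916, plus strand) was at 53.2 and 58.2 CPM in WT rTreg, 54.7 and 55.3 in Foxp1-deficient rTreg, 119 and 97.6 in WT aTreg and 129 and 140 in Foxp1-deficient aTreg cells. Itgav passed the adjusted p in both genotypes, but the change reached 2-fold only in Foxp1-deficient cells (1.94-fold in WT, edgeR adjusted p = 0.000423, and 2.44-fold in Foxp1-deficient cells, edgeR adjusted p = 7.21e-05). In WT cells Itgav was called without WT rTreg replicate 2 (log2 1.06) or without WT aTreg replicate 2 (log2 1.14). Exons of Itgav share 634 bases with Gm13684 on the opposite strand, which had at most 20 counts, and the kit does not mark strand.

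Itga6 (chr2:71745616-71858416, plus strand), the laminin-binding α chain, was at 417 and 430 CPM in WT rTreg, 229 and 226 in Foxp1-deficient rTreg, 187 and 212 in WT aTreg and 119 and 130 in Foxp1-deficient aTreg libraries. The groups stood in that order without overlap. Its aTreg level was lower by 1.09 on the log2 scale in WT cells (2.12-fold, edgeR adjusted p = 2.79e-05) and by 0.87 in Foxp1-deficient cells (1.83-fold, under the 2-fold threshold, edgeR adjusted p = 5.16e-05).

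In Foxp1-deficient mice Itgae, Itgb1, Itgb8 and Itgav were called higher in aTreg cells, 4 of the 10 against 11.3% of all genes, and 0 of the 10 were called lower, against 4.39%. Itga6, as given above, fell at the adjusted p alone. Of the 10, 7 passed the adjusted p alone, against 40.1% of all genes, and the median log2 change was 0.41 beside −0.02 over all genes. Itgal (chr7:127296260-127335138, plus strand), the α chain of LFA-1, was at 830 and 847 CPM in WT rTreg, 782 and 830 in Foxp1-deficient rTreg, 1558 and 1378 in WT aTreg and 1402 and 1386 in Foxp1-deficient aTreg cells. It was higher in aTreg cells of both genotypes, by 1.75-fold and 1.73-fold (edgeR adjusted p = 9.62e-05 and 7.08e-05), under the fold threshold, and its genotypes overlapped in each subset.

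The remaining β chains differed less between subsets. Itgb2 (chr10:77530252-77565708, plus strand) was between 688 and 804 CPM in the 8 libraries and passed no subset test (log2 0.12 in WT and −0.02 in Foxp1-deficient cells, edgeR adjusted p = 0.118 and 0.771). Itgb7 (chr15:102215995-102231944, minus strand) was lower in WT aTreg (873 and 879 CPM) than in WT rTreg cells (1123 and 1059 CPM), by 0.32 on the log2 scale (edgeR adjusted p = 0.0285), and the Foxp1-deficient subsets overlapped (1212 and 1247 against 1046 and 1312 CPM). Itgb3 (chr11:104608000-104670476, plus strand), a chain best known from platelets, was at 151 and 160 CPM in WT rTreg, 115 and 136 in Foxp1-deficient rTreg, 56.8 and 113 in WT aTreg and 107 and 154 in Foxp1-deficient aTreg cells. In WT cells it was lower in aTreg by 0.92 on the log2 scale (edgeR adjusted p = 0.00764), under 2-fold, and it was called without WT rTreg replicate 2 (log2 −1.17) or WT aTreg replicate 2 (log2 −1.31). The platelet markers Pf4 and Gp1bb had at most 1 count in every library, and the 5 platelet markers in the table summed to 2.44 to 6.38 CPM. Gp1ba, the 1 platelet marker with enough counts to be tested, was at 5.89 and 4.56 CPM in WT rTreg and 3.95 and 3.27 in WT aTreg cells (log2 −0.52, edgeR adjusted p = 0.119), and lower in Foxp1-deficient aTreg than rTreg cells by 0.96 on the log2 scale (edgeR adjusted p = 0.0159), and its part in the Itgb3 values was not tested.

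**Figure D2:**
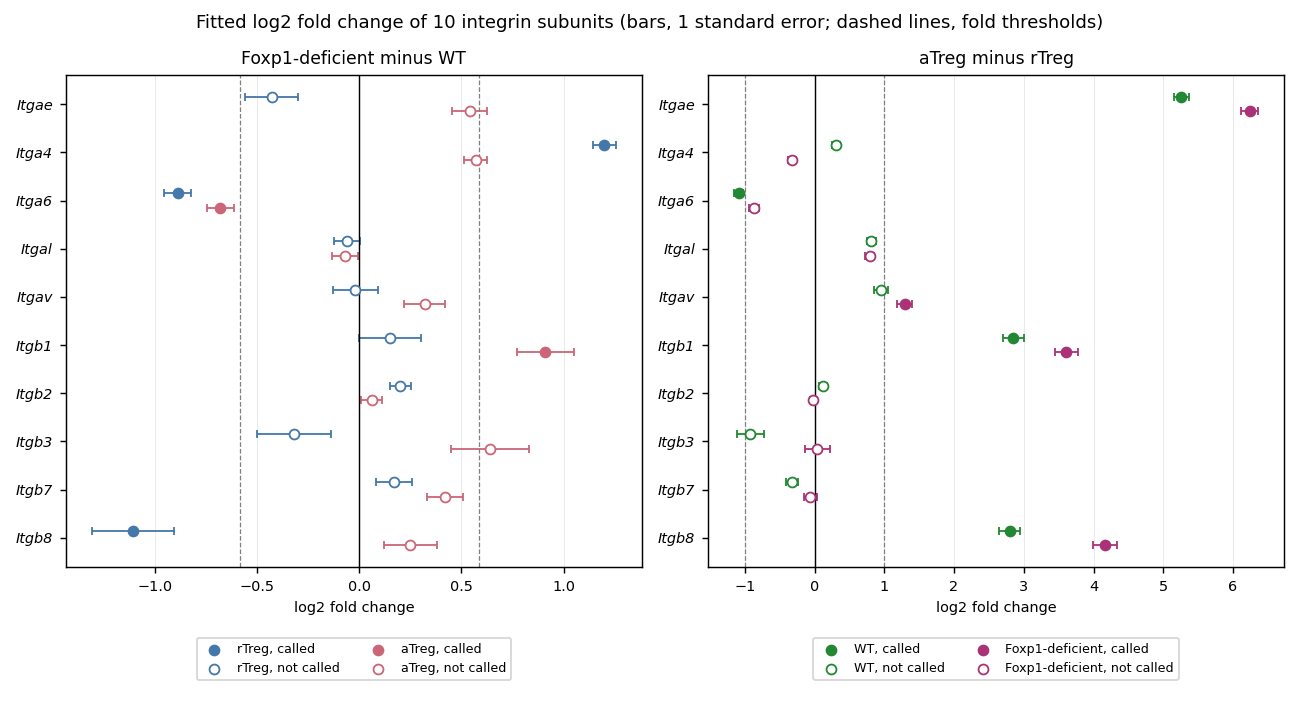
Fitted log2 fold changes of the 10 integrin subunits with bars of 1 standard error, on the left for Foxp1-deficient minus WT in rTreg and aTreg cells and on the right for aTreg minus rTreg in each genotype; filled points were called and dashed lines mark 1.5-fold and 2-fold. Itgae, Itgb1 and Itgb8 lie at 2.80 to 6.24 on the right, and on the left Itga4 in rTreg cells (1.20) is farthest above 0 and Itgb8 in rTreg cells (−1.11) farthest below.

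The second question was what Foxp1 deficiency did to integrin transcripts in resting cells. For genotypes the call asked for at least 1.5-fold. In rTreg cells Itga4 rose, 1 of the 10 against 2.90% of all genes, and Itga6 and Itgb8 fell, 2 of the 10 against 2.70%. Itgb2 passed the adjusted p alone, which made 4 of the 10 against 12.0% of all genes. The median log2 change of the 10 was −0.04, beside 0.00 over all genes. The sort gene Cd44 was lower in the same comparison by 0.43 on the log2 scale (edgeR adjusted p = 0.0339), and its part in these values was not tested.

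Itga4 (chr2:79255426-79333123, plus strand), the α chain of the gut-homing α4β7 and of α4β1, was at 565 and 671 CPM in WT rTreg, 1356 and 1470 in Foxp1-deficient rTreg, 706 and 820 in WT aTreg and 1102 and 1150 in Foxp1-deficient aTreg libraries. The groups did not overlap, and the highest was Foxp1-deficient rTreg. The rTreg genotype difference was 2.29-fold (log2 1.20, SE 0.057, edgeR adjusted p = 5.78e-05), with 1.26 and 1.13 in the pairs of libraries with the same number. Between subsets Itga4 passed the adjusted p alone in opposite directions, higher in WT aTreg cells by 1.24-fold and lower in Foxp1-deficient aTreg cells by 1.25-fold (edgeR adjusted p = 0.00516 and 0.00282). Neither passed without the replicate block (edgeR adjusted p = 0.128 and 0.0831). Exons of Itga4 share 1124 bases with Cerkl on the opposite strand, which had at most 62 counts, beside at least 6137 for Itga4.

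Itga6 fell by 0.89 on the log2 scale in Foxp1-deficient rTreg cells (1.86-fold, SE 0.066, edgeR adjusted p = 0.000525), from libraries at 417 and 430 CPM to 229 and 226 CPM. The Foxp1-deficient rTreg level came near that of WT aTreg cells (187 and 212 CPM) without overlapping it. Itgb8 fell by 1.11 on the log2 scale (2.16-fold, SE 0.2, edgeR adjusted p = 0.0145). That call rested on few counts, 131 and 178 against 43 and 76, and was lost without WT rTreg replicate 2 (log2 −0.87, adjusted p = 0.0891), Foxp1-deficient rTreg replicate 1 (log2 −1.19, adjusted p = 0.0643) or Foxp1-deficient rTreg replicate 2 (log2 −1.0, adjusted p = 0.18, all by edgeR).

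Itgb2 was higher in Foxp1-deficient rTreg cells by 0.20 on the log2 scale (803 and 798 against 704 and 688 CPM, edgeR adjusted p = 0.0447), under 1.5-fold. The other 6 subunits did not pass. Their log2 differences were −0.43 for Itgae (edgeR adjusted p = 0.0776), −0.32 for Itgb3, −0.06 for Itgal, −0.02 for Itgav, 0.15 for Itgb1 and 0.17 for Itgb7 (edgeR adjusted p between 0.252 and 0.94 for the latter 5). For Itgae only 30 to 118 counts were behind each rTreg library.

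In aTreg cells Itgb1 rose, 1 of the 10 against 2.37% of all genes, and Itga6 fell, 1 of the 10 against 1.66%. Itgae, Itga4 and Itgb7 were higher at the adjusted p alone, so that 5 of the 10 passed it, against 6.88% of all genes. Without the replicate block Itga6 alone of the 10 passed, and the edgeR adjusted p was 0.465 for Itgae, 0.107 for Itga4 and 0.181 for Itgb7. The median log2 change of the 10 was 0.37, beside 0.00 over all genes.

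Itga6 fell by 0.68 (1.6-fold, SE 0.066, edgeR adjusted p = 0.00236), to 119 and 130 CPM from 187 and 212. Itgb1 was 1.88-fold higher (log2 0.91, SE 0.14, edgeR adjusted p = 0.0122), with 0.58 in the pair numbered 1 and 1.25 in the pair numbered 2. That call was lost without WT aTreg replicate 2 (log2 0.68, edgeR adjusted p = 0.0549), without Foxp1-deficient aTreg replicate 2 (log2 0.70, edgeR adjusted p = 0.104) and without the replicate block (log2 0.93, edgeR adjusted p = 0.0752).

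Itga4 was 1.48-fold higher in Foxp1-deficient aTreg cells (log2 0.57, SE 0.057, edgeR adjusted p = 0.00246) and Itgae 1.46-fold higher (log2 0.54, SE 0.084, edgeR adjusted p = 0.0123), both just under 1.5-fold. The libraries of Itga4 did not overlap between genotypes and those of Itgae did, at 275 and 370 against 366 and 589 CPM. Itga4 was called without WT aTreg replicate 2 (log2 0.60) or Foxp1-deficient aTreg replicate 2 (log2 0.63), and Itgae without WT aTreg replicate 1 (log2 0.63) or Foxp1-deficient aTreg replicate 1 (log2 0.67). Itgb7 was 1.34-fold higher (log2 0.42, SE 0.088, edgeR adjusted p = 0.0323), and it was called without Foxp1-deficient aTreg replicate 1 (log2 0.59).

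The other 5 subunits did not pass in aTreg cells. Itgb3 was at 0.64 on the log2 scale with SE 0.19 and overlapping libraries (edgeR adjusted p = 0.0864). It was called without WT aTreg replicate 2 (log2 1.04), with DESeq2 (log2 0.65, DESeq2 adjusted p = 0.0218) and without a filter on low counts (log2 0.65, edgeR adjusted p = 0.000203). Itgav was at 0.32, Itgb8 at 0.25, Itgb2 at 0.06 and Itgal at −0.07 (edgeR adjusted p between 0.109 and 0.543). The sort gene Cd44 was at 213 and 214 CPM in WT and 174 and 197 CPM in Foxp1-deficient aTreg cells (edgeR adjusted p = 0.206). Since these were bulk libraries, fewer cells of a type and less RNA per cell cannot be told apart, and the part of the sort in the integrin values was not tested.

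Whether the genotype difference itself differed between the subsets was tested as an interaction, the aTreg difference minus the rTreg difference. Of the 10 subunits 1, Itga4, passed at an edgeR adjusted p under 0.05, against 0.330% of all genes. Its genotype difference was smaller in aTreg cells by 0.63 on the log2 scale (SE 0.08, edgeR adjusted p = 0.0304). The next were Itgae at 0.98 (SE 0.16, edgeR adjusted p = 0.0531), Itgb8 at 1.37 (SE 0.24, edgeR adjusted p = 0.0605), Itgb1 at 0.76 (SE 0.2, edgeR adjusted p = 0.17) and Itgb3 at 0.96 (SE 0.26, edgeR adjusted p = 0.175), none of which passed. The Itga4 call was lost without any of 6 libraries, with edgeR adjusted p from 0.0676 to 0.217, and it held without replicate 1 of WT aTreg or of Foxp1-deficient aTreg. It was also lost without the replicate block (edgeR adjusted p = 0.498). Itgae, Itgb1 and Itgb8 passed without WT aTreg replicate 1 (edgeR adjusted p = 0.0395, 0.04 and 0.0117) and Itgb3 without WT aTreg replicate 2 (edgeR adjusted p = 0.0498). With DESeq2 in place of edgeR, all of Itga4, Itgae, Itgb1, Itgb3 and Itgb8 passed, with DESeq2 adjusted p from 3.6e-07 to 0.0236.

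Because a subunit needs a partner, the FPKM of the α and β chains of known pairs was set side by side within each library. Each ratio has 2 libraries a group, too few for a permutation p under 0.05, so these are descriptions of transcript levels. For αEβ7, Itgb7 exceeded Itgae 220 ± 40.7-fold in WT rTreg and 349 ± 105-fold in Foxp1-deficient rTreg cells, and 4.63 ± 0.934-fold and 4.25 ± 0.745-fold in the corresponding aTreg cells (SD, n = 2). Itgb7 stayed the more abundant chain in every group. For α4β7, Itgb7 exceeded Itga4 9.08 ± 1.47-fold in WT rTreg, 4.44 ± 0.164-fold in Foxp1-deficient rTreg, 5.88 ± 0.595-fold in WT aTreg and 5.33 ± 0.693-fold in Foxp1-deficient aTreg cells.

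For α4β1 and α6β1 the order of the chains turned between subsets. Itga4 was above Itgb1 in rTreg cells, with a ratio of 2.38 ± 0.318 in WT and 4.92 ± 0.423 in Foxp1-deficient cells, and below it in aTreg cells, at 0.414 ± 0.0903 and 0.323 ± 0.0582 (SD, n = 2). Itga6 was likewise above Itgb1 in rTreg cells (2.52 ± 0.0866 in WT and 1.23 ± 0.186 in Foxp1-deficient) and below it in aTreg cells (0.167 ± 0.034 and 0.0552 ± 0.00811). The chain present at the lower transcript level by FPKM of these 2 pairs was thus Itgb1 in rTreg cells and the α chain in aTreg cells, in both genotypes. That order rests on the gene lengths behind FPKM, 13978 bases for Itga4 and 4081 for Itgb1. By CPM, which does not divide by length, Itga4 was above Itgb1 in WT aTreg cells (763 against 545). For αVβ1 the order did not turn, with a ratio of Itgav to Itgb1 of 0.279 ± 0.0212 in WT rTreg, 0.25 ± 0.0336 in Foxp1-deficient rTreg, 0.0754 ± 0.00206 in WT aTreg and 0.0501 ± 0.00778 in Foxp1-deficient aTreg cells.

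For the TGF-β-activating pair, Itgav exceeded Itgb8 4.41 ± 0.181-fold in WT rTreg and 9.29 ± 1.53-fold in Foxp1-deficient rTreg cells, and was close to it in aTreg cells (1.22 ± 0.103 and 1.27 ± 0.0736, SD, n = 2). For LFA-1, the ratio of Itgal to Itgb2 was 0.56 ± 0.0172 in WT rTreg, 0.468 ± 0.0217 in Foxp1-deficient rTreg, 0.901 ± 0.0384 in WT aTreg and 0.822 ± 0.0305 in Foxp1-deficient aTreg cells. Itgb2 was thus the more abundant transcript of LFA-1 in each group.

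As shares of the summed FPKM of the 5 α chains, Itgae took 0.812 ± 0.0858% in WT rTreg and 18.5 ± 3.75% in WT aTreg cells, and Itga4 took 19.6 ± 1.6% in WT rTreg and 39.6 ± 0.523% in Foxp1-deficient rTreg cells. Itgal held the largest share in all 4 groups, 48% to 58.7%. Among the β chains Itgb1 took 2.77 ± 0.0446% in WT rTreg, 18.4 ± 1.59% in WT aTreg and 25.9 ± 1.86% in Foxp1-deficient aTreg cells, while Itgb7 took 44.1% to 59.5%. The sum of the α chains rose from 221 and 226 FPKM in WT rTreg to 390 and 390 in WT aTreg libraries, as a description.

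**Figure D3:**
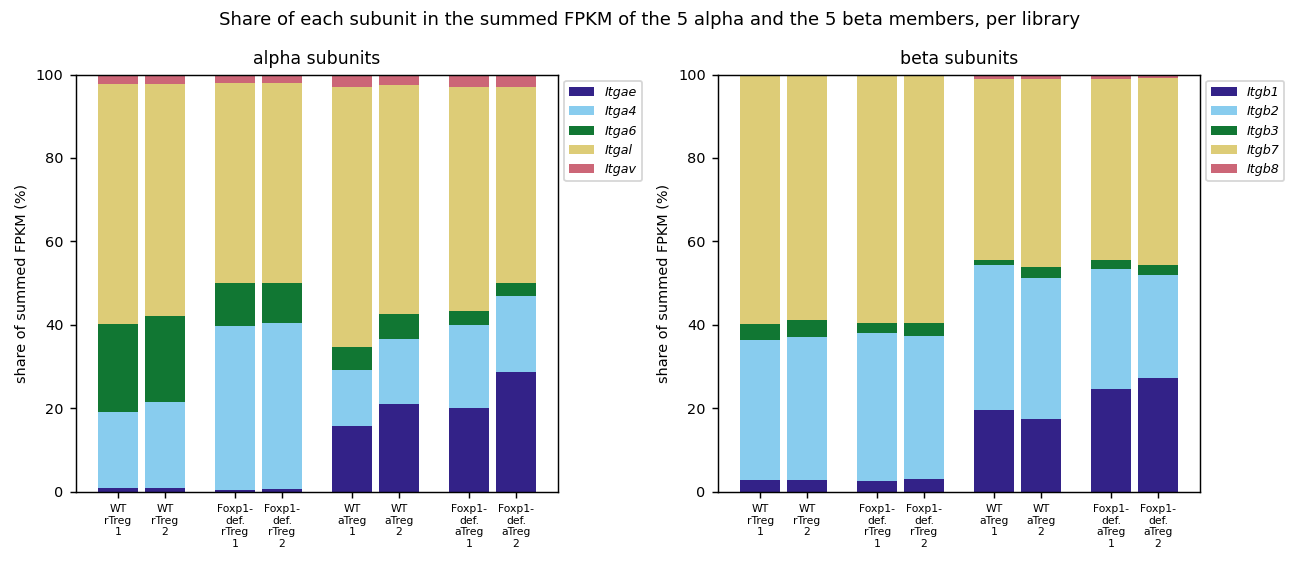
Share (%) of each subunit in the summed FPKM of the 5 α chains (left) and the 5 β chains (right), as stacked bars for each of the 8 libraries. The Itga4 share is largest in the Foxp1-deficient rTreg libraries (39.2% and 39.9%), and the Itgae and Itgb1 shares are visible in the aTreg libraries.

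Of 17 further integrin subunits, 16 were in the table and 12 were tested. Itga8 and Itgb2l had 3 counts or fewer in every library. In aTreg against rTreg cells 5 of the 12 were called higher in WT and 6 in Foxp1-deficient cells, beside 9.50% and 11.3% of all genes, and 0 and 2 lower, beside 2.83% and 4.39%. Itga1 and Itgb5, with 0 to 3 counts in rTreg libraries, entered the tests only through aTreg libraries. Itgad, with at most 6 counts in the other groups, entered only through Foxp1-deficient aTreg libraries. The part of these 3 genes in the higher calls was therefore largely set by the filter on low counts. The collagen-binding chain Itga2 had 11 and 8 counts in WT rTreg and 69 and 144 in WT aTreg cells (10.3-fold, edgeR adjusted p = 0.000539), and was 19.6-fold higher in Foxp1-deficient aTreg cells (edgeR adjusted p = 0.000149). Itga1, another collagen-binding chain, had 0 to 1 count in rTreg and 10 to 51 in aTreg libraries, and Itgb5, an αV partner, had 0 to 3 in rTreg, 52 and 58 in WT aTreg and 159 and 203 in Foxp1-deficient aTreg libraries. Itga1 and Itgb5 were called in both genotypes. Itga3 and Itga7, laminin-binding chains, were 2.23-fold and 4.62-fold higher in WT and 3.62-fold and 5.02-fold higher in Foxp1-deficient aTreg cells. In Foxp1-deficient cells alone, Itgad was also called higher in aTreg (13.2-fold, edgeR adjusted p = 0.000243). Called lower there were Itga5 (3.13-fold, edgeR adjusted p = 0.000583) and Itga9 (5.73-fold, edgeR adjusted p = 0.000865).

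Between genotypes Itga7 rose in both subsets (2.28 to 2.86 against 6.93 to 10 CPM in rTreg, 11.1 to 12.4 against 38.6 to 43.5 CPM in aTreg, 3.2-fold and 3.48-fold, edgeR adjusted p = 0.00637 and 0.00222). Itga5, the fibronectin receptor chain, fell in both (25.2 and 21.7 against 10.5 and 13.9 CPM in rTreg, 16.7 and 13.7 against 3.86 and 4.1 CPM in aTreg, 1.87-fold and 3.78-fold, edgeR adjusted p = 0.0187 and 0.00282). Itga9 rose in Foxp1-deficient rTreg cells (2.96-fold, edgeR adjusted p = 0.0215), from 4.7 and 3.3 to 17.2 and 7.8 CPM. Itgad, a β2 partner of myeloid cells, had 2 and 3 counts in WT aTreg and 59 and 93 in Foxp1-deficient aTreg libraries (called, edgeR adjusted p = 0.00173), and Itgb5 rose in the same comparison (3.05-fold, edgeR adjusted p = 0.0327). The median log2 change of the 12 was 0.01 in rTreg and 0.25 in aTreg cells between genotypes. Beside Itgad, the myeloid chains Itgam and Itgax had at most 12 counts in any library. In the Foxp1-deficient aTreg libraries, where Itgad was at 4.95 and 6.68 CPM, the myeloid markers summed to 6.54 CPM in one and 31.9 CPM in the other, beside 8.14 to 9.55 CPM in WT aTreg libraries. Mpo was called higher between aTreg genotypes (9.18-fold, edgeR adjusted p = 0.0394), and 4 of the 5 myeloid markers tested did not pass. The part of myeloid cells in the Itgad values was not tested.

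The Itga5 call in rTreg was lost without WT rTreg replicate 1 or 2 or Foxp1-deficient rTreg replicate 1, and the Itga9 call without any of the 4 rTreg libraries. The Itga7 call in rTreg was lost without WT rTreg replicate 2. The Itgb5 genotype call in aTreg was lost without any of the 4 aTreg libraries, and the Itga1 subset call in WT without WT rTreg replicate 2.

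**Figure D4:**
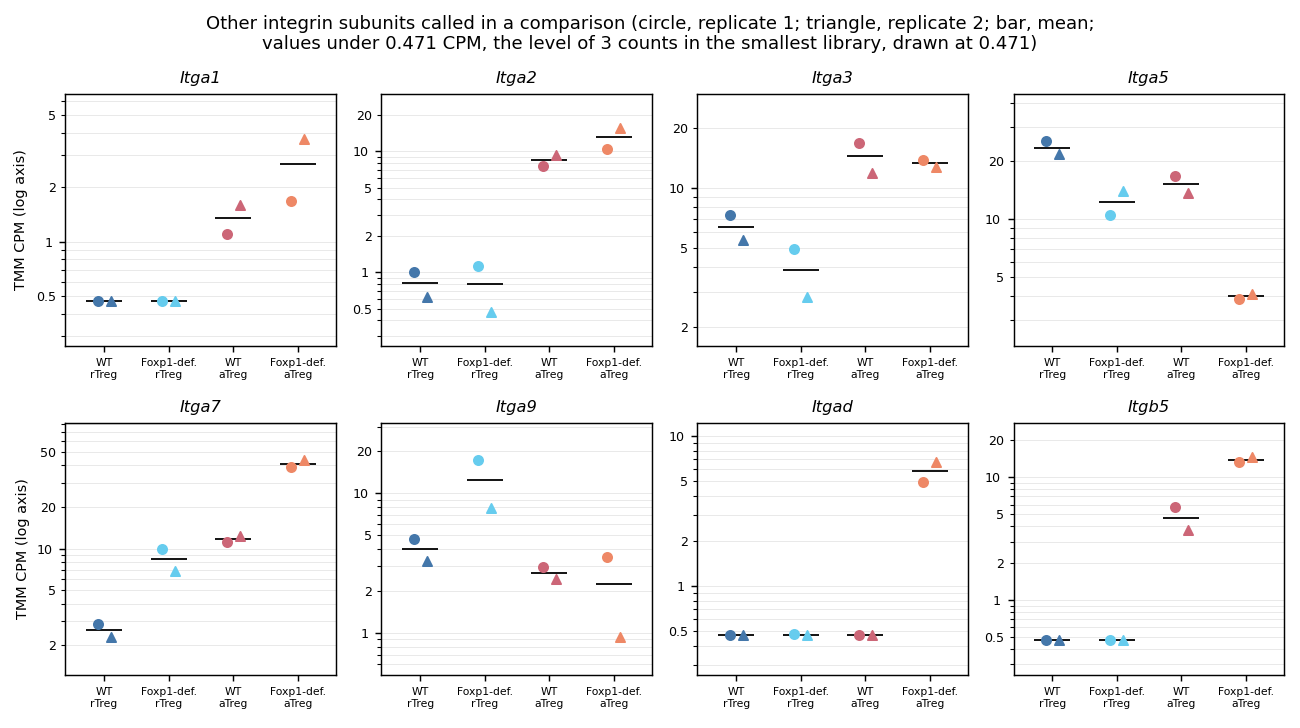
TMM-scaled CPM (log axis, own range in each panel) of 8 other integrin subunits called in at least 1 comparison, in the 8 libraries by group, with circles for replicate 1, triangles for replicate 2, a bar at the mean and values under 0.471 CPM drawn at that level. Itgad is above that level mainly in the Foxp1-deficient aTreg libraries (4.95 and 6.68 CPM), and Itga5 is lowest there (3.86 and 4.1 CPM).

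Of 16 ligands and TGF-β latency genes, all were in the table and 11 were tested. Icam1, the main LFA-1 ligand, rose without Foxp1 in both subsets, from 57.7 and 47.2 to 108 and 125 CPM in rTreg (2.23-fold, edgeR adjusted p = 0.00277) and from 104 and 92.6 to 143 and 169 CPM in aTreg cells (1.59-fold, edgeR adjusted p = 0.025). The aTreg call of Icam1 was lost without replicate 2 of WT aTreg or of Foxp1-deficient aTreg. Lamc1, a laminin chain, fell in Foxp1-deficient rTreg cells (1.71-fold, 14.6 and 15.6 against 8.93 and 8.67 CPM, edgeR adjusted p = 0.0184), and was 7.19-fold and 18.3-fold higher in aTreg than rTreg cells of WT and Foxp1-deficient mice. Its rTreg call was lost without WT rTreg replicate 2 or either Foxp1-deficient rTreg library. In aTreg cells Fn1 (fibronectin, 2.48-fold, edgeR adjusted p = 0.0432) and Lama5 (2.14-fold, edgeR adjusted p = 0.0328) were called higher without Foxp1. The Fn1 call was lost without any single one of the 8 libraries, and that of Lama5 without any except the 2 Foxp1-deficient rTreg libraries. Vcam1, which binds α4β1, had 0 to 3 counts in rTreg and 31 to 62 in aTreg libraries. It was called in both subset comparisons, as was Fn1, while Lama5 was called in Foxp1-deficient cells. Vcam1 and Fn1, with at most 4 counts in any rTreg library, also entered the tests only through aTreg libraries. Cdh1 (E-cadherin, 1 to 70 counts) did not pass in any of these comparisons. Tgfb1 was between 226 and 285 CPM in the 8 libraries, and passed only in Foxp1-deficient aTreg against rTreg cells (log2 0.27, edgeR adjusted p = 0.0171).

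Of 49 genes of integrin activation and adhesion adaptors, 48 were in the table and 43 were tested. In Foxp1-deficient rTreg cells 0 of the 43 were called higher and 5 lower, beside 2.90% and 2.70% of all genes, with a median log2 change of −0.13 beside 0.00. Src, the kinase downstream of integrins, was at 7.92 and 9.43 CPM in WT and 1.75 and 1.08 CPM in Foxp1-deficient rTreg cells (6.65-fold lower, edgeR adjusted p = 0.000906), and the others were Actn1 (α-actinin, 1.83-fold), Cd9 (1.78-fold), Tns1 (tensin, 1.77-fold) and Cd81 (1.68-fold). The Actn1 call was lost without any of the 4 rTreg libraries, that of Cd9 without any except WT rTreg replicate 1, and those of Tns1 and Cd81 without Foxp1-deficient rTreg replicate 2. In aTreg cells Actn1 was called lower (2.85-fold, edgeR adjusted p = 0.00246) and Rap1gap2, which turns off the integrin activator Rap1, higher (2.58-fold, edgeR adjusted p = 0.00357). That was 1 of the 43 each way, beside 2.37% of all genes called higher and 1.66% called lower, so both were near the share of all genes. The Rap1gap2 call was lost without Foxp1-deficient aTreg replicate 2.

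Between subsets 3 of the 43 adaptors were called higher and 4 lower in WT, beside 9.50% and 2.83% of all genes, and 6 higher and 3 lower in Foxp1-deficient cells, beside 11.3% and 4.39%, so the higher calls were near the share of all genes. Src (6.32-fold and 28.9-fold), Rap1gap2 (2.1-fold and 6.98-fold) and Dok1 (2.08-fold and 2.44-fold), which competes with talin for β tails, were higher in aTreg cells of both genotypes. Ptk2 (FAK, 3.91-fold and 3.15-fold), Rasgrp2, the exchange factor that loads Rap1 (2.72-fold and 2.46-fold), and Actn1 (2.13-fold and 3.31-fold) were lower in both, and Cytip was lower in WT (2.21-fold). Bcar1, Tns1 and Cd81 were further called higher in Foxp1-deficient aTreg cells. Bcar1 had 0 counts in both Foxp1-deficient rTreg libraries and 7 and 13 in the aTreg ones, at least 2.19-fold higher against the floor. In WT cells the Actn1 call was lost without WT aTreg replicate 1, and the Dok1 and Rap1gap2 calls without WT aTreg replicate 2. In Foxp1-deficient cells the Bcar1 call was lost without either rTreg library or aTreg replicate 2, and the Tns1 call without rTreg replicate 2 or aTreg replicate 1.

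By Pearson correlation of log2 CPM over the 8 libraries, which share their groups and sexes, the genes nearest to each subunit were described without a test. Itgae was nearest to Glrx (r = 0.9978) and Naip2 (0.9977), Itgb1 to Fam129a (0.9990) and S100a11 (0.9985), Itgb8 to Ikzf2 (0.9983) and Ryk (0.9973), and Itgav to Fbxl19 (0.9983) and Nsun7 (0.9979). Itgal was nearest to Nfatc1 and Nsmf (0.9968 each), Itga6 to Pde1b (0.9921) and Nrbp1 (0.9877), and Itga4 to Qpct (0.9882) and Hectd2 (0.9860). Itgb2 (Prkcsh 0.9759, Mta3 0.9724), Itgb7 (Vdac1 0.9745, Zdhhc7 0.9593) and Itgb3 (Arsk 0.9560, Pbrm1 0.9552) had the least close neighbours. Among the subunits themselves, Itgae, Itgal, Itgav, Itgb1 and Itgb8 ran together (r from 0.95 to 0.99), and Itga6 was negative with each of these 5 (−0.84 to −0.67), whereas Itga4 was between −0.18 and 0.10 with them and at 0.83 with Itgb2.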

How the data were processed

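RNA of sorted Treg cells was sequenced in 8 libraries. Per the labels and the methods of the study, the authors checked reads with FastQC, trimmed them with trim_galore, aligned them with HISAT2 2.0.5 to mm10 (submitters' processing notes), dropped PCR duplicates (Picard) and ran htseq-count, and the deposited counts are whole reads for each gene, not normalized. The annotation and strand setting of the counting are not given in the sources used here. The deposited FPKM values, made by the authors, equal counts over total counts and gene length within a relative deviation of 0.000359, so they add no measurement. The reads carried no molecular identifiers.

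All 8 libraries entered 1 fit in edgeR 4.0.16 (R 4.3.3; TMM, filterByExpr with minimum count 10, glmQLFit and glmQLFTest) on 14540 genes, with group means and the replicate number as a block, since the study's methods describe paired samples; 13054 genes were left out. A call needs a Benjamini-Hochberg adjusted p under 0.05 with at least 1.5-fold (genotypes) or 2-fold (subsets) change. Deviations of same-numbered libraries correlated at 0.38 to 0.597 over 14540 genes in the 4 comparisons. The script was tested on simulated data. Coordinates are from GENCODE M21 (GRCm38), promoter windows from RefSeq (GRCm38.p6). Alternatives used limma 3.58.1, DESeq2 1.42.0, other size factors, filters and FPKM. The members and gene lists were chosen with earlier results of these data known. The text names all members, list genes called (at most the 8 of largest change per list and comparison), the 2 genes nearest each member, the targeted gene and markers; Itgam, Itgax, Cdh1 and Tgfb1 were added after their values were seen. A second sort marker and 1 of the B cell markers are not reported here.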

Additional observations from a re-analysis of the deposited data

Results flagged for a closer look

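A genotype difference that itself differed between subsets was found by the interaction term for 4 of the integrin, ligand and adaptor genes, and for the targeted gene Foxp1. The 4 were 1 of the 10 members, 0 of the 12 other subunits tested, 1 of the 11 ligand genes and 2 of the 43 adaptors, beside 0.330% of all genes. Each difference is given as the aTreg difference minus the rTreg difference on the log2 scale. It was −0.63 for Itga4 (SE 0.08, edgeR adjusted p = 0.0304), whose transcripts were higher without Foxp1 by 1.20 in rTreg and by 0.57 in aTreg cells. It was 1.35 for Lamc1 (SE 0.18, edgeR adjusted p = 0.0322), 2.19 for Src (SE 0.28, edgeR adjusted p = 0.0304) and 1.73 for Rap1gap2 (SE 0.25, edgeR adjusted p = 0.0477). For Foxp1, counted over its whole length, it was −0.92 (SE 0.13, edgeR adjusted p = 0.0477). Src had 11 and 15 counts in the Foxp1-deficient rTreg libraries. Without the replicate block the edgeR adjusted p was 0.498 for Itga4, 0.181 for Lamc1, 0.181 for Src and 0.305 for Rap1gap2, and 0 of all 14540 genes passed. With DESeq2 these 4 genes passed, with DESeq2 adjusted p from 3.6e-07 to 0.000736. With limma-voom Itga4 alone of the 4 did (limma adjusted p = 0.0353, against 0.0523 to 0.0663 for the others). Of 16 alternatives the call was lost in 9 for Itga4, 10 for Lamc1, 10 for Rap1gap2 and 11 for Src. With 1 library left out in turn, the log2 difference was 1.17 to 1.57 for Lamc1, 1.73 to 2.49 for Src and 1.46 to 1.98 for Rap1gap2.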

How the results depend on the processing

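Of 14 called member values, 11 were called under all 17 alternatives, 8 of which left out a library; the exceptions were Itgb8 between rTreg genotypes, Itgb1 between aTreg genotypes and the Itga4 interaction. Of 840 member values under an alternative, 784 kept direction and side of the threshold, 18 lost and 24 gained the call, and 14 changed sign, none of them called. Itgb8 in rTreg lost its call with limma on log2(FPKM + 1) (−0.49, limma adjusted p = 0.0981), and Itgb1 in aTreg on both FPKM scales (limma adjusted p = 0.0626 and 0.0711).

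The replicate block, which the main test holds, was also left out. Counts at an unadjusted p under 0.05, here and below, have no share of all genes beside them and cannot be judged against it. Without the block, members called were 1 in place of 2 between aTreg genotypes and 0 in place of 1 for the interaction, where 3 had an unadjusted p under 0.05, and list genes called were 5 in place of 10 in rTreg, 5 in place of 9 in aTreg and 0 in place of 3 for the interaction (11 at unadjusted p under 0.05). Over all genes, calls higher and lower were 159 and 107 without the block against 421 and 393 in rTreg, 43 and 34 against 344 and 242 in aTreg, and 0 against 48 for the interaction. In the other member comparisons its omission changed no call by adjusted p and fold, but members that had passed the adjusted p alone no longer did: Itgb2 between rTreg genotypes (edgeR adjusted p = 0.238), Itgb7 (0.108), Itgb3 (0.109) and Itga4 (0.128) between WT subsets, and Itga4 (0.0831) between Foxp1-deficient subsets.

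On log2(FPKM + 1) and log2(FPKM + 0.1) members called were 1 in aTreg and 0 for the interaction, with 5 at an unadjusted p under 0.05 on each scale, and list genes called were 5 and 6 in rTreg, 3 and 2 in aTreg, 0 and 0 for the interaction (13 and 12 at unadjusted p under 0.05), and, with a pseudocount of 1, 9 in place of 15 between WT subsets and 11 in place of 21 between Foxp1-deficient subsets; genes under a mean of 1 FPKM were not tested there. The interaction called 5 members with DESeq2 and 5 without a filter, 6 and 10 list genes, and 279 and 573 genes of all; limma-voom called 0 list genes (18 at unadjusted p under 0.05). The cause was not tested. The interaction could not be fitted on the libraries of a comparison alone. Over all genes, calls higher and lower between aTreg genotypes were 216 and 133 on those libraries alone and 583 and 452 without a filter, and with a pseudocount of 1 they were 71 and 58, beside 180 and 186 in rTreg, 629 and 158 between WT subsets (1382 and 411 in the reported test) and 834 and 253 between Foxp1-deficient subsets (1643 and 639).

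Leaving out 1 library in turn, in fits that let a lone library vary like the other groups, gave 2 to 4 members between aTreg genotypes (Itgae, Itgb7 gained without Foxp1-deficient aTreg replicate 1) and 0 to 4 for the interaction, and 4 to 10 list genes in rTreg, 4 to 8 in aTreg and 0 to 4 for the interaction. Calls over all genes also moved widely between these fits, in both genotype comparisons and in the interaction. The ranges of members and list genes called therefore cannot be read as particular to integrins. Values that crossed 0 were Itgal in rTreg (−0.13 to 0.01), in aTreg (−0.18 to 0.04) and in the interaction (−0.12 to 0.10, and 0.01 without a filter), Itgav in rTreg (−0.12 to 0.07), and between Foxp1-deficient subsets Itgb3 (−0.10 to 0.19), Itgb7 (−0.24 to 0.10) and Itgb2 (−0.07 to 0.03, 0.02 without a filter and 0.03 on both FPKM scales). Depth limits Itgae and Itgb8 in rTreg, with 30 to 178 counts a library.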
